A study of Mus musculus with 2 samples.

Results

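Droplet barcodes that carried platelet RNA or mural cell RNA made up 228 of the 17167 barcodes kept from 2 single-cell libraries of sorted mouse brain microglia. A barcode was kept with at least 500 detected genes, at least 1000 unique molecular identifiers (UMIs, counted RNA molecules) and at most 10% mitochondrial UMIs. The platelet subset was chosen by detection of at least 2 of Ppbp, Clec1b, Gng11, Pf4, Itga2b and Gp9, with Ppbp or Clec1b among them, and held 208 barcodes. The mural subset was chosen by detection of at least 3 of Vtn, Acta2, Myl9, Tagln, Rgs5, Kcnj8 and Pdgfrb, and held 20 barcodes. No barcode met both rules. The levels of these 13 genes therefore define the members and are given as description.

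The brains came from adult male C57BL/6J mice with no labelled genetic change. Of these, 3 mice received saline (the awake group) and 3 received sodium pentobarbital, a barbiturate anesthetic, at 100 mg/kg (the anesthesia group). Brains were dissociated with collagenase and DNase and cleared of myelin on a Percoll gradient. CD11b+ CD45low cells were then sorted and captured with 10x 3' version 3 chemistry. Each group was deposited as 1 library, the labels do not say how its mice were combined or when tissue was taken after injection, and group, library and handling cannot be told apart. No test between groups was possible, so every interval below is an exact 95% interval that covers counting error within these libraries only.

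Platelets are fragments of megakaryocytes without a nucleus. They carry RNA for granule chemokines, adhesion receptors and a contractile cytoskeleton, and they adhere to leukocytes, chiefly through P-selectin. Mural cells wrap brain vessels: pericytes sit on capillaries inside the endothelial basement membrane, and smooth muscle cells surround arterioles and contract through alpha smooth muscle actin. The sorting gate is meant for microglia, and where a barcode holds such RNA beside microglial RNA, an adhering fragment, a doublet and free RNA in the droplet cannot be told apart in these data.

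The awake library had 8223 kept barcodes of 8600 and the anesthesia library 8944 of 9412, with 53262885 and 61139016 deposited UMIs. Median depth per kept barcode was 5955 and 5442 UMIs, and barcodes over 10000 UMIs made up 8.77% of the awake and 13.6% of the anesthesia library. The libraries shared 14 barcode sequences, of which 0 were members. The sorted label held for most barcodes: 7909 awake and 8687 anesthesia barcodes outside both subsets had at least 10 of 15 microglial genes, and these served as the microglial reference. Barcodes with at least 5 of 12 endothelial markers numbered 153 and 163 outside the subsets, and those with at least 5 of 10 border macrophage markers 42 and 32.

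Promoters of platelet rule genes are shown because these genes chose the larger subset. Their joint detection is part of the rule and lends no weight to a shared motif. Itga2b, also in the RefSeq table, matched neither motif described below and is not shown, and Gng11 had no row there. The rule genes for granule chemokines, Ppbp (chr5:90768518-90770063, + strand) and Pf4 (chr5:90772435-90773383, + strand), are neighbours in the mouse genome, with starts 3917 bases apart in GENCODE M21 on GRCm38. Clec1b lies at chr6:129397297-129409335 (+ strand), where it overlaps Clec9a on the same strand, and Gp9 at chr6:87778072-87779768 (+ strand). Each line gives the 250 bases before the RefSeq start on GRCm38.p6, 5′ to 3′, with capitals on the motif GATAA on either strand, the core of the site read by megakaryocyte GATA factors, or on a CArG box, the site of serum response factor.
Ppbp, chr5:90768268-90768517, + strand, a CArG box in capitals: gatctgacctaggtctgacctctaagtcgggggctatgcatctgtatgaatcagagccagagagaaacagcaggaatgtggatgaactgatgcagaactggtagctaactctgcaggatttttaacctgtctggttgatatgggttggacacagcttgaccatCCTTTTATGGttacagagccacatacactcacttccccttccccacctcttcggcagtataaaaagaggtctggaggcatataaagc
Pf4, chr5:90772185-90772434, + strand, no match: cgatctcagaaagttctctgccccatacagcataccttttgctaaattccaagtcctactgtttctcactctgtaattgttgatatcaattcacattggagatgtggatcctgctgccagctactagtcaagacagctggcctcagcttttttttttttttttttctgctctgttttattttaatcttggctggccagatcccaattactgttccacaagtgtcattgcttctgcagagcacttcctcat
Clec1b, chr6:129397047-129397296, + strand, GATAA or TTATC in capitals: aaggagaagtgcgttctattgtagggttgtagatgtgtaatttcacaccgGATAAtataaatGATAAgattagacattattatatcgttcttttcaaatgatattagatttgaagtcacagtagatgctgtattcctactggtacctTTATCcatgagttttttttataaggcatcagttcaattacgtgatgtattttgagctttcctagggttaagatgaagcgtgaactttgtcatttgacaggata
Gp9, chr6:87777820-87778069, + strand, GATAA in capitals: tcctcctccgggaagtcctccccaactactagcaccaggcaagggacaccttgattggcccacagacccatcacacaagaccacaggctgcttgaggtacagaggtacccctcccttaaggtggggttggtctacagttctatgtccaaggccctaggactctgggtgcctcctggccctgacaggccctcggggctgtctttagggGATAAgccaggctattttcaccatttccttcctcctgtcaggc
GATAA in either orientation occurred in 2 of 5 platelet rule promoters and in 3 of 5 mural rule promoters in the RefSeq table, beside 22.6% of all 32851 promoters of that length. A CArG box occurred in 1 of 5 promoters of each rule and in 1.47% of all. A match is a run of letters and was not tested as a binding site.

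The platelet subset was a larger share of the awake library than of the anesthesia library. It held 132 of 8223 awake barcodes, 1.61% (95% exact binomial interval 1.34% to 1.90%), and 76 of 8944 anesthesia barcodes, 0.850% (0.670% to 1.06%). The awake share was 1.89-fold (1.41 to 2.54) the anesthesia share, and the 2 intervals of the shares did not overlap. When each barcode was thinned to 1000 UMIs, 29 awake barcodes (0.353%) and 8 anesthesia barcodes (0.0894%) still met the rule.

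The gap between the libraries depended on depth. Among barcodes of 2000 to 5000 UMIs, the platelet share was 1.47% (26 of 1772, interval 0.961% to 2.14%) in the awake library and 0.321% (10 of 3118, 0.154% to 0.589%) in the anesthesia library. From 5000 to 10000 UMIs it was 1.46% (80 of 5488, 1.16% to 1.81%) and 0.708% (30 of 4239, 0.478% to 1.01%). In both ranges the awake interval lay above the anesthesia interval. Over 10000 UMIs the shares were 2.50% (18 of 721, 1.49% to 3.92%) and 2.87% (35 of 1220, 2.01% to 3.97%), with intervals that overlapped. Below 2000 UMIs, 8 of 242 awake barcodes (3.31%) and 1 of 367 anesthesia barcodes (0.272%) were members, with intervals that also overlapped. The anesthesia share rose with depth in each step, whereas the awake share was highest in the shallowest and the deepest range. By a narrower count, at least 2 of Ppbp, Clec1b and Itga2b, the awake shares from the shallowest to the deepest range were 2.48%, 0.734%, 0.620% and 0.555%. The anesthesia shares were 0 of 367, 0.0641%, 0.212% and 0.820%. No doublet caller was run, and the part of doublets in these shares was not tested.

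**Figure D1:**
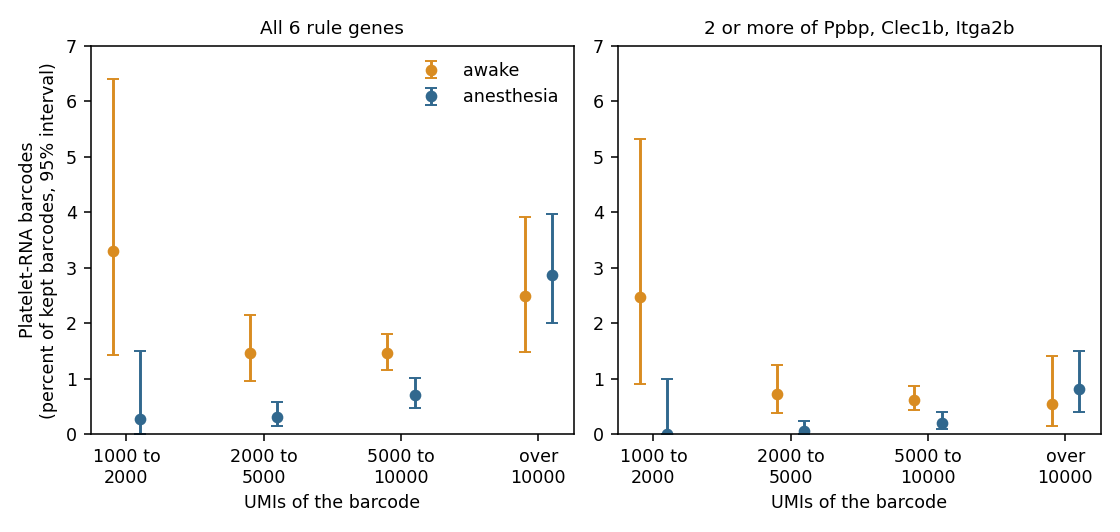
Share of kept barcodes in the platelet subset (y axis, percent) by UMI range (x axis) in each library, with all 6 rule genes (left) and with at least 2 of Ppbp, Clec1b and Itga2b (right); bars are exact 95% binomial intervals. The awake share lies above the anesthesia share below 10000 UMIs on the left, and over 10000 UMIs the 2 are 2.50% and 2.87%.

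The 6 rule genes marked platelets unequally. Gp9, a subunit of the receptor complex for von Willebrand factor, was detected in 28.2% and 22.4% of the microglial reference (awake, then anesthesia), so its detection alone sets no barcode apart. Ppbp, the precursor of a platelet granule chemokine, had a UMI in 0.202% and 0.0806% of the same reference, and Clec1b, the platelet receptor for podoplanin, in 0.683% and 0.483%. That reference leaves out the members, which all hold Ppbp or Clec1b, so these low shares are partly set by the rule. Gng11, a G protein gamma subunit, was detected in 68.6% and 62.0% of endothelial reference barcodes, and Pf4, platelet factor 4, in 100% and 93.8% of border macrophage reference barcodes. When Gp9 was dropped from the rule, 25 awake and 19 anesthesia members had fewer than 2 genes left. Of these, 19 and 15 held Clec1b and Gp9 alone.

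In the platelet subset, Ppbp had 230 UMIs in 92 of 132 awake barcodes and 60 UMIs in 41 of 76 anesthesia barcodes. Clec1b had 129 UMIs in 81 awake and 70 UMIs in 50 anesthesia barcodes, of which 14 lay in a single anesthesia barcode. Both genes were detected together in 41 awake and 15 anesthesia members. Pf4 was the most abundant rule gene in each library, with 373 UMIs in 87 awake and 141 UMIs in 44 anesthesia barcodes. It was found with Ppbp, its genomic neighbour, in 73 awake and 29 anesthesia members. Gng11 had 316 and 87 UMIs, and Itga2b, the alpha subunit of the platelet fibrinogen receptor, 70 and 14. Gp9 had 143 and 62 UMIs in 74 and 49 members.

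Most members held few platelet molecules. The UMIs of the 6 genes per member ran from 2 through a median of 5 to 69 in the awake library and from 2 through 4 to 33 in the anesthesia library. Per 10000 UMIs of the barcode, the median was 8.61 awake and 4.24 anesthesia, and the highest member held 242 and 55.5. Exactly 2 rule genes were detected in 44 awake and 34 anesthesia members, and all 6 in 12 and 3. Just outside the threshold lay 70 awake and 49 anesthesia barcodes with Ppbp or Clec1b as their single rule gene, and a further 143 and 123 with at least 2 rule genes but neither Ppbp nor Clec1b.

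The platelet-RNA barcodes carried nearly the microglial RNA of a reference microglia. The 15 microglial genes took a median of 3.68% of UMIs in awake members (lowest 0.121%, highest 8.14%) and 3.32% in anesthesia members (0.131% to 4.60%). The microglial reference had medians of 3.93% and 3.55%, and the ratio of medians was 0.936 in each library. Between the 5th and 95th percentiles of the reference fell 108 of 132 awake members (81.8%) and 68 of 76 anesthesia members (89.5%). Below that range fell 20 and 7 members. In UMIs, the median was 240.5 awake and 280.5 anesthesia, beside 238 and 195 in the reference.

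Of single microglial genes, P2ry12, the purinergic receptor of homeostatic microglia, was detected in 93.9% of awake and 97.4% of anesthesia members, and in 99.3% and 99.1% of the microglial reference. The chemokine receptor gene Cx3cr1 was detected in 90.9% and 97.4% of members. Microglial genes also reached other barcodes: P2ry12 was detected in 62.1% and 65.0% of the endothelial reference. The level was lower there, 842 against 1570 CPM in the awake platelet subset and 1110 against 1547 CPM in the anesthesia subset. CPM are UMIs scaled to a common total for each set of barcodes.

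**Figure D2:**
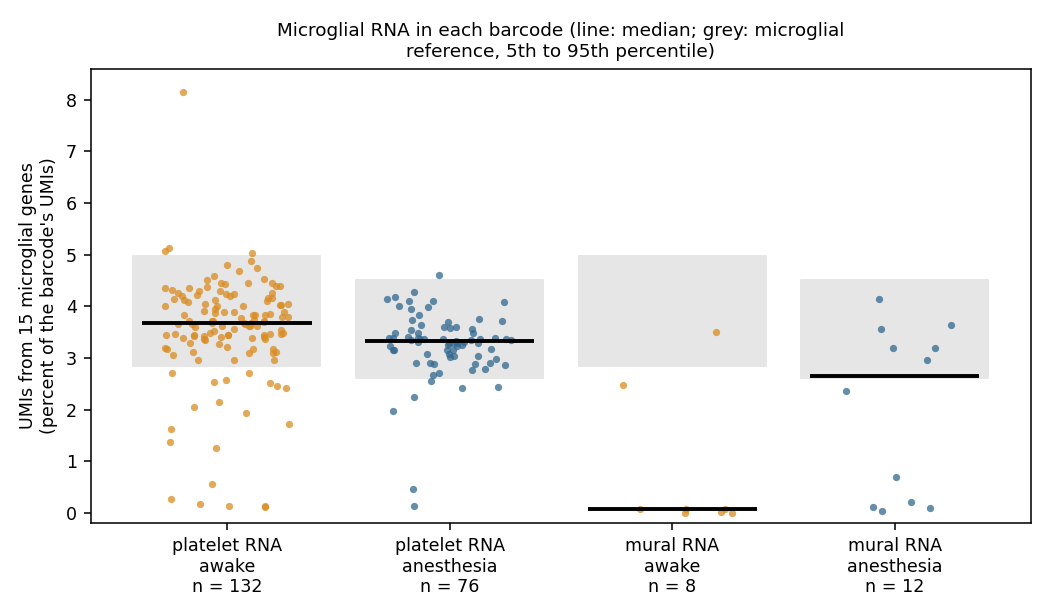
Percent of UMIs from 15 microglial genes (y axis) in each member, by subset and library (x axis); lines are medians and grey bands the 5th to 95th percentile of the microglial reference. Platelet-RNA barcodes lie mostly within the band (81.8% awake, 89.5% anesthesia), and 7 of 8 awake and 6 of 12 anesthesia mural-RNA barcodes lie below it.

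At least 10 of the 15 microglial genes were detected in 121 of 132 awake and 74 of 76 anesthesia platelet-RNA barcodes. The 11 awake members with fewer were small: they held 1117 to 6128 UMIs with a median of 2030, a median of 5.37% mitochondrial UMIs and 29.0 platelet rule UMIs per 10000. At least 5 endothelial markers were found in 11 awake and 10 anesthesia members, and 7 and 1 of them had fewer than 10 microglial genes. That left 4 awake and 1 anesthesia members with neither profile. Of all kept barcodes with at least 5 endothelial markers, the platelet rule took 6.55% (11 of 168) awake and 5.65% (10 of 177) anesthesia, compared with 1.51% and 0.844% of barcodes with at least 10 microglial genes. The rule gene Gng11 is itself common in endothelial barcodes. By at least 2 of Ppbp, Clec1b and Itga2b, the endothelial shares were 2.38% (interval 0.652% to 5.98%) and 1.13% (0.137% to 4.02%). The microglial shares were then 0.635% (0.473% to 0.834%) and 0.228% (0.139% to 0.352%), with intervals that overlapped the endothelial ones.

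In the awake library, the median depth and microglial percent were lower among members with all 6 rule genes than among those with 2, with overlapping ranges. The 44 awake members with 2 genes had a median of 6314.5 UMIs, 1.56% mitochondrial UMIs and 3.95% microglial UMIs. The 12 with 6 genes had 3353.5 UMIs, 3.57% mitochondrial and 2.64% microglial UMIs. In the anesthesia library the 34 members with 2 genes had 8441.5 UMIs and 3.29% microglial UMIs, and the 3 with 6 genes had 15955 UMIs and 3.26%. The awake barcode with the most platelet rule UMIs held 69 of them among 3776 UMIs and 1192 genes, with 2.70% microglial UMIs. Others held 57 among 3626 UMIs and 34 among 1745 UMIs, with 2.15% and 1.72% microglial. The most in an anesthesia barcode was 33, among 15955 UMIs.

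Genes outside the rule that were higher in the platelet subset included known platelet genes such as Myl9, Alox12 and Treml1, and also endothelial genes. Compared with the other kept barcodes of the same library, 58 of 6598 genes with at least 30 member UMIs (0.879%) were 2-fold or more higher in each library, and 0 (0.00%) were 2-fold or more lower in each. In single libraries 1.56% were higher and 0.349% lower in the awake library, and 1.15% and 0.0606% in the anesthesia library. Over all 6598 genes the log2 ratio had a median of -0.01. These barcodes were chosen on genes of the same cells, so the ratios below are description and were not tested. They are log2 ratios of summed CPM, members over other kept barcodes, awake first and anesthesia second.

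Pdlim1 and Myl9, both of the actin and myosin cytoskeleton, had the highest pooled ratios. Myl9, the regulatory light chain of myosin, had 108 awake UMIs in 54 members and 24 anesthesia UMIs in 16, with log2 ratios of 6.98 and 5.36. Myl9 is also a gene of the mural rule. Pdlim1, a PDZ and LIM domain adaptor, had 27 and 5 UMIs (7.63 and 4.85). Cald1, the actin-binding caldesmon, had ratios of 4.03 and 3.28. Among enzymes and kinase subunits, Alox12, the platelet-type arachidonate lipoxygenase, reached 5.64 and 4.81, and Prkar2b, a regulatory subunit of protein kinase A, 5.78 and 3.31.

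The most abundant RNAs among these were Ctla2a and Nrgn. Ctla2a, which encodes a cathepsin inhibitor, had 792 UMIs in 89 awake members and 272 UMIs in 50 anesthesia members, with log2 ratios of 5.26 and 3.63. Nrgn encodes neurogranin, a calmodulin-binding protein found in neurons and also in platelets. It had 359 UMIs in 85 awake members and 120 in 40 anesthesia members (5.99 and 4.09). No single barcode held more than 19 of the awake or 15 of the anesthesia Nrgn UMIs. Over the pooled libraries the ratios were 4.64 for Ctla2a and 5.23 for Nrgn. Members with at least 10 microglial genes, set against the microglial reference, gave 5.29 and 5.25, with both the members and the comparison barcodes changed.

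Receptors and signalling genes were lower in count. Treml1, a receptor stored in platelet alpha granules, had 44 and 15 UMIs (log2 3.82 and 1.82). Rasgrp2, the exchange factor that activates Rap1 in platelets, had 40 and 24 UMIs (3.61 and 1.90). Vwf, which encodes von Willebrand factor of endothelium and platelets, had 21 and 11 UMIs (3.40 and 2.31). The collagen receptor Gp6 had 12 and 2 UMIs and Gp5, a further subunit of the von Willebrand factor receptor complex, 11 and 8, both under the minimum of 30 for a call. Itgb3, the partner of Itga2b, which microglia also express, had a pooled log2 ratio of 0.15 (interval -0.39 to 0.65).

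**Figure D3:**
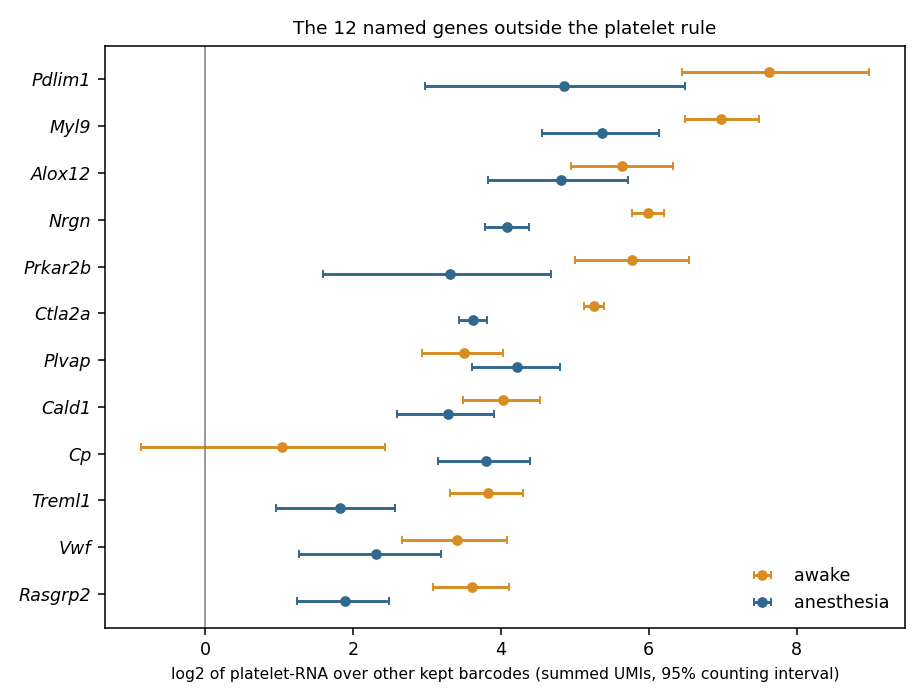
Log2 ratio of summed CPM, platelet-RNA barcodes over other kept barcodes (x axis), for the 12 genes outside the rule named by fixed criteria (y axis), awake and anesthesia libraries as separate points with 95% counting intervals. Ratios run from 1.04 for Cp in the awake library to 7.63 for Pdlim1 in the awake library.

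Not all the named genes were spread over members. Plvap, which forms the diaphragms of fenestrated endothelium, had 35 awake UMIs in 3 barcodes, 33 of them in 1, and 32 anesthesia UMIs in 2. Cp, the copper oxidase ceruloplasmin, had 28 anesthesia UMIs, of which 18 lay in 1 barcode, and 4 awake UMIs. The ratios of these 2 genes, 3.82 and 3.01 over the pooled libraries, rest on single barcodes.

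By function, platelet genes differed in how far they stood above the other barcodes. A gene rare in other barcodes reaches the minimum of 30 member UMIs only where it is high in members. For such genes, the counts of higher genes below were largely set by that minimum and are description. Of 10 granule genes, 6 had at least 30 UMIs and 3 were 2-fold or more higher in each library, where 0.879% of all genes were. Clu, the chaperone clusterin, was among the measured ones at a pooled log2 ratio of 2.32, while Pdgfb was at -0.13 and Srgn, the granule proteoglycan shared with leukocytes, at 0.24. Of 16 cytoskeletal and inner signalling genes, 6 were measured and 4 were higher. Of 14 surface genes, 3 were measured and 2 were higher. Of 6 megakaryocyte transcription factors, 3 were measured and 0 were higher. Fli1 (-0.05) and Zfpm1 (0.01) were at the level of the other barcodes, and Nfe2 had 4 awake and 6 anesthesia UMIs. Of 8 genes for the leukocyte side of platelet adhesion, 4 were measured and 0 were higher, a count too small to set beside the 0.879% of all genes. Selplg, the P-selectin ligand, stood at -0.08 and Itgam, the alpha chain of Mac-1, at -0.03.

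Genes of microglia and of other cells gave the rest of the profile. All 15 microglial genes were measured, 0 were 2-fold higher or lower in each library, and their median log2 ratio was -0.09. Endothelial markers summed to 9.34 awake and 6.65 anesthesia UMIs per 10000, beside 2.11 and 2.14 in the microglial reference, and 4 of 10 measured markers were 2-fold or more higher in each library, where 0.879% of all genes were. Flt1, a VEGF receptor, had 110 and 127 UMIs (pooled log2 1.60), and Emcn, endomucin, 58 and 30 (2.60). Of the 179 awake and 101 anesthesia UMIs of Cldn5, the tight junction claudin, 57 and 40 lay in 1 barcode of each library. Erythroid genes summed to 0.980 and 0.341 UMIs per 10000 (reference 1.33 and 1.56) and neutrophil genes to 2.30 and 1.76 (reference 12.0 and 3.23). Other lists were above the reference: astrocyte genes summed to 1.86 and 1.47 (reference 0.95 and 0.970), with 2 of 4 measured 2-fold or more higher in each library. Neuronal genes summed to 0.360 and 0.213 (reference 0.132 and 0.173), with a UMI in 11 awake and 14 anesthesia members. Choroid plexus genes summed to 8.53 and 11.2 (reference 7.63 and 7.73), with a UMI in 42 and 28 members. In each library 1 member had at least 5 choroid markers. The 2 measured choroid genes had a median log2 ratio of -0.78 against the other kept barcodes. For markers rare in other barcodes, the counts of higher genes again depend on the minimum of 30 UMIs. The part of endothelial or other RNA in the platelet profile was not tested.

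Between the libraries, Nrgn, Ctla2a and Myl9 were lower in anesthesia members and several cytokine genes higher. Of 2982 genes with at least 100 UMIs, 478 (16.0%) were 1.5-fold or more higher in anesthesia members and 265 (8.89%) were lower. Over the same genes the microglial reference had 268 (8.99%) higher and 176 (5.90%) lower. The intervals again cover counting error alone, and the anesthesia members were deeper than the awake ones, with median UMIs of 8441.5 and 6314.5.

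The 6 rule genes chose the members by detection, and a deeper barcode can qualify on the same few UMIs, so their ratios are given as description and support nothing. The log2 ratio was -2.02 for Ppbp, -2.40 for Itga2b, -1.94 for Gng11, -1.48 for Pf4, -1.28 for Gp9 and -0.96 for Clec1b. Outside the rule, Nrgn had 359 awake and 120 anesthesia UMIs, a log2 ratio of -1.66 (-1.97 to -1.36), while in the microglial reference it was 0.35. Ctla2a stood at -1.62 beside 0.17 in the reference. Myl9 stood at -2.25 (-2.95 to -1.60) beside -0.66, and Clu at -1.41 beside -0.13. As lists, platelet surface genes summed to 2.19 awake and 0.970 anesthesia UMIs per 10000 (reference 0.410 and 0.456), and cytoskeletal and inner signalling genes to 14.6 and 6.61 (reference 4.13 and 3.16). Granule genes were closer, at 13.9 and 12.6 (reference 7.73 and 9.91), with 1 of 4 measured higher and 2 lower, and megakaryocyte factors summed to 2.21 and 2.70 (reference 2.39 and 2.57). Without the barcodes over 10000 UMIs the log2 ratios were closer to 0: Nrgn stood at -0.90, Ppbp at -1.20 and Myl9 at -1.65.

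Cytokine, immediate early and microglial genes were set beside the reference list by list. Of 14 measured cytokine genes, 9 were 1.5-fold or more higher and 0 lower in anesthesia members, where 16.0% and 8.89% of all genes were, with a median log2 ratio of 0.98 beside 0.76 in the reference. Il1b, interleukin 1 beta, went from 31 to 160 UMIs, a log2 ratio of 2.29 (1.73 to 2.89) beside 1.19. The chemokine gene Ccl4 stood at 1.20 beside 1.24, and Tnf at 1.43 beside 1.10. Ccl2 (0.48 beside -0.14) and Ccl12 (0.27 beside -0.66), both monocyte chemoattractants, ran opposite to the reference. Of the 275 anesthesia UMIs of Cxcl10, 101 lay in 1 barcode. Of 14 measured immediate early genes, 6 were lower and 0 higher, where 8.89% of all genes were lower, with a median of -0.53 in members and in the reference. Klf2, a zinc finger transcription factor, went from 1261 to 351 UMIs, -1.92 beside -1.69. Abcb1b, a P-glycoprotein transporter, went from 23 to 121 UMIs and had the highest ratio of all, 2.32 (1.66 to 3.03) beside 1.25. Next after Il1b and Irs2, an insulin receptor substrate, were Creb5 (1.95 beside 1.64), Pmaip1, a pro-apoptotic BH3 protein (1.94 beside 1.17), Susd6 (1.90 beside 1.37) and Klf10 (1.84 beside 1.56). S100a10, an annexin partner (-1.72 beside -0.52), Nupr1 (-1.85 beside -1.30) and the histone gene Hist1h2bc (-1.86 beside -0.35) were among the lowest. Of the 15 microglial genes 1 was lower, Gpr34 (-0.63 beside -0.75), a share near the 8.89% of all genes. P2ry12 stood at -0.02 and Tmem119, a microglial membrane protein, at -0.38, beside -0.08 and -0.38.

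**Figure D4:**
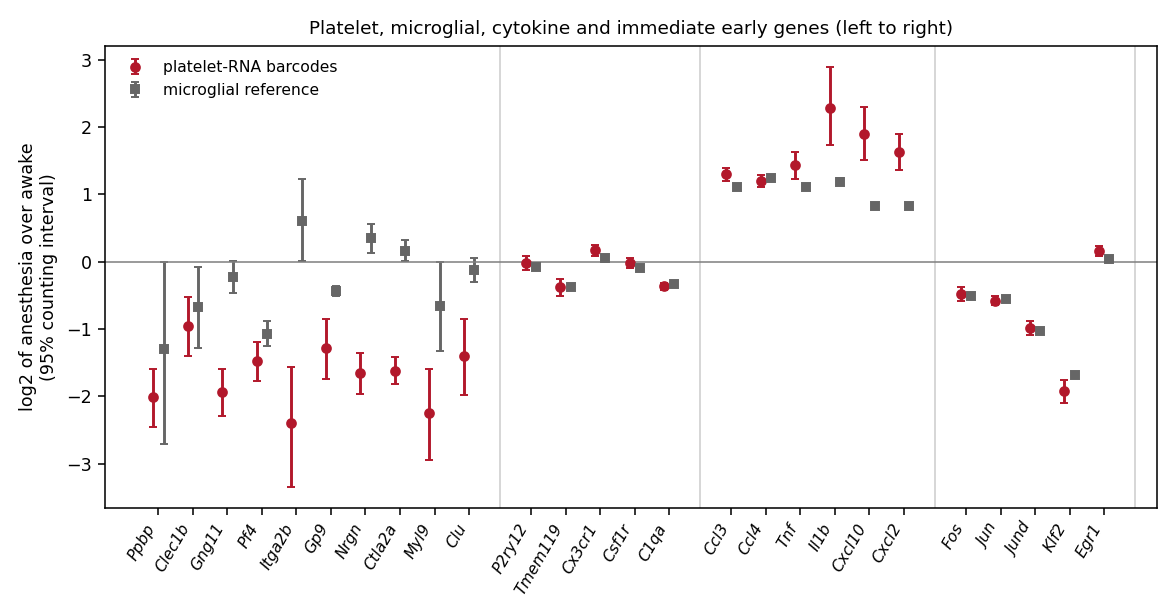
Log2 ratio of anesthesia over awake CPM (y axis) in platelet-RNA barcodes and in the microglial reference for selected platelet genes, microglial genes, cytokines and immediate early genes (x axis), with 95% counting intervals; the genes were picked from the lists after their values were seen. The platelet genes shown lie below 0 in the members. Those of the platelet rule chose the members by detection, so their ratios are description and support nothing. Outside the rule, Nrgn is at -1.66 in the members and 0.35 in the reference. Without the deepest barcodes, the Nrgn ratio in the members was smaller in size.

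The mural subset was rare in each library. It held 8 of 8223 awake barcodes, 0.0973% (exact binomial interval 0.0420% to 0.192%), and 12 of 8944 anesthesia barcodes, 0.134% (0.0693% to 0.234%). The log2 ratio of anesthesia over awake share was 0.46 (-0.95 to 1.96), so no difference between the shares was detectable at this depth. Just outside the threshold, 32 awake and 20 anesthesia barcodes had 2 mural genes. Just inside it, 3 awake and 5 anesthesia barcodes had 3, with a median of 4 and 5 mural UMIs, while members with 4 or more genes had medians of 70 and 81.

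The awake members were of several kinds. The barcode with the most contractile RNA held 81 UMIs of Acta2 (alpha smooth muscle actin), 52 of Tagln (the actin-binding transgelin), 13 of Myl9 and 1 of Rgs5, and none of Vtn. A smaller one with 1326 UMIs in all held 42 of Acta2 and no UMI of the 15 microglial genes. In other awake barcodes the leading gene was Rgs5, a regulator of G protein signalling enriched in pericytes. One held 20 of its UMIs with 4 of Pdgfrb, the pericyte receptor for PDGF-B. Another held 17, with 9 of the potassium channel gene Kcnj8 and 8 of Vtn. The largest, with 15427 UMIs, held 67 of Rgs5 and 25 of Acta2 and all 12 endothelial markers. The barcode with 20 UMIs of Rgs5 also held all 12 endothelial markers, and the barcode with 17 held 8. Single cells, doublets and vessel fragments were not told apart here.

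In the anesthesia library, Vtn led. Vtn, vitronectin, an extracellular matrix protein made in brain mainly by pericytes, had 115, 55, 49 and 48 UMIs in 4 barcodes, all with 0 UMIs of Acta2 and Tagln. These 4 also held 27, 47, 14 and 14 UMIs of Rgs5. The barcodes with 115 and 55 UMIs of Vtn held all 12 endothelial markers, and those with 49 and 48 held 1 each. Acta2 did not exceed 13 UMIs in any anesthesia barcode. Counted over Vtn, Rgs5 and Kcnj8 against Acta2, Myl9 and Tagln, the pericyte genes were ahead in 4 of 8 awake and 10 of 12 anesthesia members, the contractile genes in 4 and 1, and 1 anesthesia member had equal counts. Acta2 was detected in 5 awake and 3 anesthesia members.

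Summed over members, Vtn had 23 awake and 299 anesthesia UMIs, Rgs5 106 and 168, Kcnj8 11 and 26, Pdgfrb 18 and 23, Acta2 155 and 16, Tagln 80 and 14, and Myl9 46 and 54. As CPM, Vtn had a log2 ratio of anesthesia over awake of 2.49 (1.88 to 3.17) and Acta2 of -4.49 (-5.33 to -3.74). With 8 and 12 barcodes these ratios rest on a few cells: 1 barcode gave 31.8% of all awake and 1 gave 26.1% of all anesthesia UMIs of the subset. In the microglial reference these genes had a UMI in few barcodes, from 0.0379% for Kcnj8 to 1.20% for Rgs5 in the awake library. Rgs5 was in 19.6% and 16.6% and Vtn in 11.8% and 7.36% of endothelial reference barcodes.

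**Figure D5:**
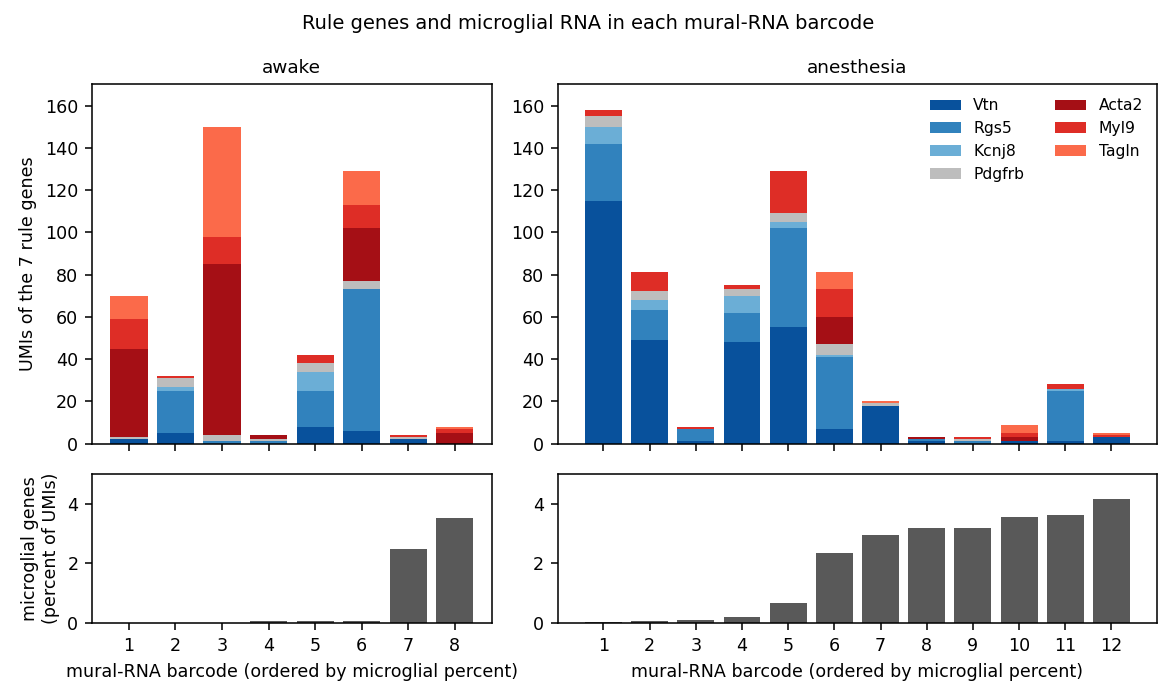
UMIs of the 7 mural rule genes, stacked (upper panels), and percent of UMIs from 15 microglial genes (lower panels) for each of the 8 awake and 12 anesthesia mural-RNA barcodes, ordered by microglial percent. The highest Acta2 counts are in awake barcodes and the highest Vtn counts in anesthesia barcodes, and high counts of both lie mainly where the microglial percent is low.

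Most mural-RNA barcodes either held almost no microglial RNA or lay near the reference. In awake members, the 15 microglial genes took a median of 0.0792% of UMIs, 0.0202 of the reference median. In 6 of 8 it was 0.0843% or less, and in the other 2 it was 2.48% and 3.51%. In anesthesia members, the median was 2.66%, 0.749 of the reference median: 5 barcodes held 0.693% or less, and the other 7 between 2.36% and 4.15%. The barcode at 0.693% was in neither group, with 131 microglial UMIs from 14 of the 15 genes among 18896 UMIs. At least 10 microglial genes were detected in 2 of 8 awake and 8 of 12 anesthesia members. At least 5 endothelial markers were found in 4 members of each library, and 2 in each had neither profile. P2ry12 was detected in 0 of 6 awake and 2 of 4 anesthesia members that had fewer than 10 microglial genes.

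Members rich in microglial RNA held few mural molecules with some exceptions. The awake barcode at 3.51% held 5 UMIs of Acta2, 2 of Myl9 and 1 of Tagln. An anesthesia barcode at 3.63% held 24 of Rgs5, 1 of Vtn, 2 of Myl9 and 1 of Kcnj8. One at 2.36% held 34 of Rgs5, 13 of Acta2, 13 of Myl9 and 5 of Pdgfrb. One at 2.95% held 18 of Vtn with 1 of Tagln and 1 of Pdgfrb. The deepest member, with 29294 UMIs and 3.19% microglial, held 1 UMI each of Vtn, Acta2 and Rgs5.

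Genes outside the rule that were higher in the mural subset included pericyte, smooth muscle, matrix and endothelial genes. Compared with other kept barcodes, 106 of 875 genes with at least 30 member UMIs (12.1%) were 2-fold or more higher in each library and 2 (0.229%) were lower, with a median log2 ratio over all genes of -0.04. In single libraries 19.5% were higher and 20.6% lower in the awake library, and 13.3% and 0.343% in the anesthesia library. As with the platelet subset, these ratios come from the cells that were selected and were not tested. Ndufa4l2, a mitochondrial protein gene enriched in pericytes, had 16 awake and 31 anesthesia UMIs (pooled log2 10.74). Higd1b, also enriched in pericytes, had 13 and 21 (10.00). Rgs4, a regulator of G protein signalling, had 23 and 14 (8.79). Ebf1, a transcription factor, had 28 and 29 (6.56).

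Contractile genes were also among the highest. Cald1 had 60 and 80 UMIs (8.32), Mylk, the myosin light chain kinase, 21 and 11 (8.31), and Tpm2, a tropomyosin, 32 and 12 (6.48). Of the 69 awake UMIs of Mgp, the matrix Gla protein of vessel walls, 59 lay in 1 barcode. Tm4sf1, a tetraspanin-like protein of endothelium, had 85 and 26 UMIs (6.37).

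By list, the 18 further pericyte genes summed to 24.5 awake and 18.5 anesthesia UMIs per 10000, beside 0.0479 and 0.0575 in the microglial reference. Of these, 3 were measured and 3 were higher in each library, where 12.1% of all genes were. A gene rare in other barcodes reaches the minimum of 30 member UMIs only where it is high in members. For such genes, the counts of higher genes in this paragraph were largely set by that minimum and are description. Abcc9, the sulfonylurea receptor that pairs with Kcnj8, had 7 and 20 UMIs, Notch3 12 and 17, and Cspg4, the NG2 proteoglycan, 15 and 8. Smooth muscle genes summed to 37.7 and 9.09 per 10000 (reference 0.196 and 0.192), with 3 of 18 measured and 3 higher. Des, desmin, had 5 and 13 UMIs. Of the 18 awake UMIs of Pln, the calcium pump regulator phospholamban, 17 lay in 1 barcode. Of 12 matrix genes 6 were measured and 5 were higher, among them Igfbp7 (143 and 136 UMIs, pooled log2 6.35) and Col4a1, a basement membrane collagen (23 and 23, 5.47). Sparc, also expressed by microglia, stood at -0.40. Endothelial markers summed to 51.9 and 42.7 per 10000 and 5 of 5 measured were higher, fibroblast genes to 1.24 and 1.60, and all 8 erythroid genes were at 0. The endothelial sum exceeded those of the pericyte and smooth muscle lists. Astrocyte genes summed to 7.21 and 6.95 (reference 0.95 and 0.970) and neuronal genes to 2.68 and 1.78 (reference 0.132 and 0.173), and the part of these cells in the mural profile was not tested.

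Between the libraries, microglial genes and Vtn were higher and Acta2 and Tm4sf1 lower in anesthesia mural-RNA barcodes. Of 234 genes with at least 100 UMIs, 73 (31.2%) were 1.5-fold or more higher and 48 (20.5%) lower in anesthesia members, beside 26 (11.1%) and 20 (8.55%) in the microglial reference. Of 12 measured microglial genes 11 were higher, with a median log2 ratio of 1.56 beside -0.18 in the reference. P2ry12 went from 7 to 122 UMIs, a log2 ratio of 2.91 (1.83 to 4.26) beside -0.08. Siglech, a microglial lectin, stood at 2.43. Among cytokines, Ccl4 went from 21 to 783 UMIs (4.01), Tnf from 2 to 106 (4.52), and Ccl3 stood at 2.82. Of the 160 anesthesia UMIs of Cxcl10, 148 lay in 1 barcode. Members with at least 10 microglial genes numbered 2 of 8 and 8 of 12, and the part of that difference in these ratios was not tested. Among members with fewer than 10 microglial genes, Vtn stood at 4.55. P2ry12 had 0 awake and 2 anesthesia UMIs there, so its value of 0.62 is a bound with 0 set to 3 counts. Acta2 had no anesthesia UMI there, and its value of -4.44 is likewise a bound. Lower genes beside Acta2 were Tm4sf1 (-2.92), the intermediate filament gene Vim (-2.38), Mgp (-2.11), Id3 (-1.96), the immediate early genes Nr4a1 (-1.59) and Fosb (-1.52), and Sptbn1, a spectrin (-1.52). Among members with fewer than 10 microglial genes, Tm4sf1 stood at -2.40, Mgp at -0.30 and Sptbn1 at 0.21.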

How the data were processed

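Raw UMI counts per gene and barcode were deposited by the authors as 1 sparse matrix per library, for 55450 gene identifiers on GRCm38. Per the submitters' processing notes, reads were handled with bcl2fastq and Cell Ranger 3.1.0, whereas the matrices name Cell Ranger 4.0.0, per the file headers, and the difference was not resolved. How barcodes were called as cells is not given in the sources used here. Filters on barcodes and the 2 member rules are those of the opening paragraph. Member counts were summed per library, and ratios of summed CPM were taken against the other kept barcodes of the same library (genes with at least 30 member UMIs, called at 2-fold in each library) or between libraries (at least 100 UMIs, called at 1.5-fold). Exact intervals were Clopper-Pearson for shares and conditional binomial for ratios, at 95%. A count of 0 was set to 3 counts where that gave a bound. Named genes were the 12 with the highest pooled ratio among those called in each library outside the rule, for comparisons between libraries the 8 highest and 8 lowest by log2 ratio, and from each list the members with the most UMIs. Mitochondrial, ribosomal, hemoglobin and predicted genes were left out of the rules of size. The members, the 27 gene lists and the tests were chosen with earlier results of these data known. Scripts used Python 3.11.15 with numpy 2.4.6, scipy 1.17.1, pandas 2.3.3 and matplotlib 3.10.9, and were tested on simulated data. Identifiers were matched to GENCODE M21 for positions.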

Additional observations from a re-analysis of the deposited data

Results flagged for a closer look

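Barcodes that failed the filters also met the rules. The platelet rule was met by 22 of the 377 removed awake barcodes, 5.84% (3.69% to 8.70%), and by 6 of the 468 removed anesthesia barcodes, 1.28% (0.472% to 2.77%). The 22 awake barcodes had a median of 795 UMIs and 13.4% mitochondrial UMIs, and 9 of them had 4 or more platelet genes. The mural rule was met by 9 of 377 removed awake barcodes, 2.39% (1.10% to 4.48%), with a median of 26.2% mitochondrial UMIs, and by 6 of 468 removed anesthesia barcodes, 1.28%. In each library 1 removed barcode met both rules. These barcodes enter no comparison of the report.

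Among the 8 highest and 8 lowest genes between the libraries in each subset, some ran in the opposite direction in the microglial reference, with both counting intervals clear of 0, and the difference was not tested. In platelet-RNA barcodes this held for Nrgn, at a log2 ratio of anesthesia over awake of -1.66 beside 0.35 in the reference. In mural-RNA barcodes it held for P2ry12 (2.91 beside -0.08), Sptbn1 (-1.52 beside 0.21), Nr4a1, an immediate early nuclear receptor (-1.59 beside 0.32), and Mgp (-2.11 beside 1.82). Mural members with at least 10 microglial genes numbered 2 of 8 awake and 8 of 12 anesthesia. Among members with fewer, Sptbn1 reversed, and the ratio of Mgp was much smaller in size. P2ry12 had 0 awake and 2 anesthesia UMIs in those members, too few to compare its ratio. Most awake Mgp UMIs lay in 1 barcode. Genes outside those 16 also ran opposite to the reference and were picked after their values were seen: Apoe (0.79 beside -0.66, with 660 of its UMIs in 1 anesthesia barcode) and Ctla2a (-1.62 beside 0.17) in platelet-RNA barcodes, and the protease inhibitor gene Timp3 (-1.44 beside 1.22) in mural-RNA barcodes.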

How the results depend on the processing

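No paired analysis was possible because each group is 1 library. Among the values that answer a comparison, 80 stayed within their spread or within 1.5 times the count under the alternatives and 37 did not; the cause was not tested. The platelet share, awake and anesthesia, was 0.353% and 0.0894% with each barcode thinned to 1000 UMIs, 1.07% and 0.470% with 1 more rule gene, and 1.25% and 0.637% without Pf4 and Gng11. Without Gp9, an alternative chosen after seeing the data, it was 1.30% and 0.637%. Without barcodes over 10000 UMIs the anesthesia share was 0.531%. The log2 ratio of the shares was -1.98 thinned and -1.52 without the deep barcodes, so its direction held. The mural share was 0.198% awake with no cell filter and 0.0559% anesthesia thinned. The ratio of microglial medians in platelet-RNA barcodes was 0.869 awake with 6 strict genes and 0.911 anesthesia without deep barcodes.

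Genes higher in platelet-RNA barcodes numbered 31 with 1 more rule gene, and 29 for members with 10 or more microglial genes against the microglial reference. Between the libraries, higher and lower genes in platelet-RNA barcodes numbered 165 and 169 without deep barcodes, 282 and 169 with 1 more rule gene, and 865 and 639 at a minimum of 50 UMIs. In mural-RNA barcodes, genes higher numbered 49 without deep barcodes and 7 for members with 10 or more microglial genes. Genes lower numbered 25 with equal weight of barcodes, 16 with 1 more rule gene, 0 for members with 10 or more microglial genes and 7 for those with fewer. Between the libraries they numbered 33 and 17 without deep barcodes, 29 and 27 with 1 more rule gene, 151 and 101 at a minimum of 50 UMIs, and 9 and 15 for members with fewer microglial genes. There Sptbn1 reversed, to 0.21. The alternatives that split members by microglial genes were also chosen after seeing the data. Fewer barcodes or UMIs leave fewer genes to count in several of these.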
